A study of Mus musculus with 2 samples.

Results

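The genes described here act in DNA methylation, chromatin assembly on newly replicated DNA, repressive histone methylation or, for Lmnb1, the nuclear lamina. They are Uhrf1, Dnmt1, Hells, Dnmt3a, Dnmt3b, Chaf1a, Chaf1b, Asf1b, Ezh2 and Lmnb1, 10 genes chosen by name, with earlier results of these data known. A probe set was taken as a member when its annotation gave exactly 1 of these symbols. This found 21 probe sets of 9 genes, out of 45101 probe sets and 18194 genes in all. The expression of Chaf1a was not analysed here.

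Thioglycolate-elicited peritoneal macrophages are inflammatory macrophages drawn into the abdominal cavity by an irritant medium. They were recovered from wild type C57BL6 male mice of 8 weeks by lavage 1 week after the injection and grown to 80% confluence in serum-containing medium. The control cells then received nothing further for 12 h, and the treated cells received 100 ng/ml CSF1 (macrophage colony-stimulating factor, the growth factor of the macrophage lineage) for 12 h. RNA of 1 sample of each kind was hybridised to an Affymetrix Mouse Genome 430 2.0 array, and the comparison asks how transcript levels differed between them. With 1 array per group there is no replicate check, no test of any difference and no p-value, and their number limits the precision of every value. The labels do not say whether the cultures were pools of mice or shared animals.

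When a replication fork passes, each daughter duplex carries methylated cytosines on the old strand alone. Uhrf1 binds such hemimethylated sites and recruits Dnmt1, which methylates the new strand, while Dnmt3a and Dnmt3b set methylation at new sites. In parallel, the histone chaperone Asf1b hands new histones H3 and H4 to chromatin assembly factor 1, of which Chaf1a and Chaf1b are subunits, and Ezh2 restores the repressive methylation of histone H3 laid down by Polycomb complexes. In many tissues several of these genes are transcribed most strongly in cells that enter S phase, often through E2F transcription factors.

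Sequence upstream of the members is shown because several members were higher together on the CSF1 array. From the RefSeq promoter table (build GRCm38.p6), 14 start sites of 9 members were used, Chaf1a among them. Lmnb1 was left out of this search. The 250 bases before each start were searched on both strands for an E2F motif (TTTCCCGC, TTTGGCGC, TTTCGCGC or TTTGCCGC), for CCAAT, for TTTGAA (the CHR element of cell cycle genes) and for the GC box GGGCGG. None of these motifs contains another, though matches may overlap. The E2F letters occurred before 3 of the 14 starts, 1 each of Hells, Uhrf1 and Dnmt1, and before 1.86% of all 32851 promoters in the table. These 3 stretches of 30 bases are given with the match in capitals; a match is a description of letters and not evidence of binding.
Hells, chr19:38930917-38930946, plus strand: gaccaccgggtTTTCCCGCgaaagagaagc
Uhrf1, chr17:56304117-56304146, plus strand: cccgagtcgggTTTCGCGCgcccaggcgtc
Dnmt1, chr9:20952824-20952853, minus strand: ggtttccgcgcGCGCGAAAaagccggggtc

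The match lay 62 to 55 bases before the start of Hells, 185 to 178 bases before the second of 2 starts of Uhrf1, and 219 to 212 bases before the third of 3 starts of Dnmt1, where it is on the opposite strand. The arrays do not tell which start was in use. The window before Asf1b held 4 CCAAT matches, all on the opposite strand and therefore read as ATTGG, and at least 4 such matches stood before 0.840% of all promoters. The window before Chaf1b held 5 GC boxes on the opposite strand, read as CCGCCC, and 1.93% of all promoters held at least 5. Such groups of matches were not limited to these members. The window before the first of 3 starts of Dnmt1 also held 4 CCAAT matches, on both strands. That before the first of 3 starts of Dnmt3a also held 5 GC boxes. The windows of Asf1b and Chaf1b are shown whole with those matches in capitals.
Asf1b, chr8:83955444-83955693, plus strand: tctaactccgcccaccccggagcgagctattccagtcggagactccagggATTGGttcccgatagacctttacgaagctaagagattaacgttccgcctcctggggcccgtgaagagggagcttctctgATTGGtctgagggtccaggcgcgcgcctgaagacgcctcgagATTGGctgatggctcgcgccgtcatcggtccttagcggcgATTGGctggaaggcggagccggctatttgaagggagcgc
Chaf1b, chr16:93883651-93883900, plus strand: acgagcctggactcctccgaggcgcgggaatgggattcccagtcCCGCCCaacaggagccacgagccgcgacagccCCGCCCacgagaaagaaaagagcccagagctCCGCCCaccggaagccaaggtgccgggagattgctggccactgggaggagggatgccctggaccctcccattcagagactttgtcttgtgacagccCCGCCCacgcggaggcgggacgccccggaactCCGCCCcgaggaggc

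Across the member promoters, CCAAT occurred before 7 of the 14 starts, against 33.8% of all promoters, and GGGCGG before 10 of the 14, against 32.7%. These starts are not separate units, since Dnmt1 and Dnmt3a have 3 each and Uhrf1 has 2, and windows of Dnmt3a overlap in part. By gene, CCAAT occurred in 5 of 9 members, against 37.5% of all genes with a promoter, and GGGCGG in 7 of 9, against 35.4%. TTTGAA occurred before 3 of the 14 starts, those of Asf1b, Dnmt1 and Dnmt3b, against 16.0% of all promoters. By gene this was 3 of 9 members, against 18.3%. In the Asf1b window TTTGAA lay 14 to 9 bases before the start. The E2F letters occurred in 3 of 9 members, against 2.16% of all genes with a promoter.

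Signals are the authors' intensity values on a linear scale, without unit. Probe sets of genes from unrelated tissues, 130 in all, gave a background level of 135 units as the 90th percentile of their values, and lower values were raised to it for ratios. Genes or probe sets above it on either array are called measured, 11144 genes in all, and each gene was represented by its brightest probe set. This level was passed by 43.2% of all control values and 41.4% of all CSF1 values. The log2 ratio of CSF1 over control had a median of 0.00 over the measured genes and ran from -0.61 at the 5th percentile to 0.62 at the 95th. The disagreement between probe sets of 1 gene, the only error at hand, gave an SD of 0.29 (log2 scale, pooled over 3859 genes), which leaves out any spread of cultures or mice.

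Of the 10 members, 8 were measured, all of them above background on both arrays; Dnmt3b was below it on both, and Chaf1a had no value. Uhrf1 and Hells, 2 of the 8, were past 2-fold higher with CSF1, against 0.996% of all measured genes, and 0 were at least 2-fold lower, against 0.772%. At 1.5-fold, 3 of the 8 were higher with Chaf1b added, against 5.95% of all measured genes, and 0 were lower, against 5.49%. The median log2 ratio of the 8 members was 0.43, or 1.34-fold, beside 0.00 for all measured genes. The log2 ratio was above 0 for 7 of the 8 members, as it was for 50.1% of all measured genes. Lmnb1 was the member below 0. Since the members were chosen with earlier results of these data known, these comparisons with all measured genes are descriptions only.

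**Figure D1:**
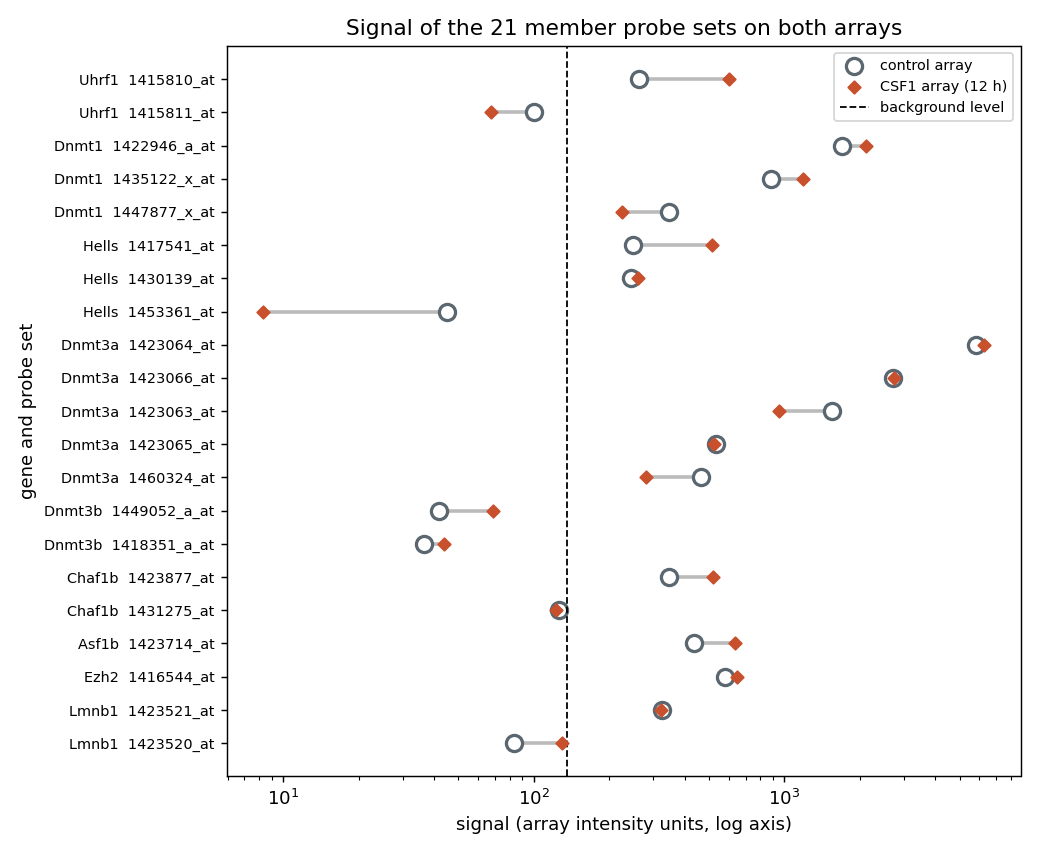
Signal of the 21 member probe sets in array intensity units on a log axis, 1 row per probe set, with open circles for the control array, diamonds for the CSF1 array and a dashed line at the background level of 135 units. The brightest probe sets of Uhrf1 and Hells stand furthest apart between the arrays among the 15 probe sets above the line on both arrays, and 6 probe sets lie below it on both.

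The highest ratio among the members was that of the gene that starts methylation maintenance. Uhrf1, the reader of hemimethylated DNA, stood at 262 units without and 599 units with CSF1. Its CSF1 signal was 2.29-fold higher, a log2 ratio of 1.19, and the gene ranked 44 from the highest among the 11144 measured genes. This value rests on 1 probe set. The other Uhrf1 probe set was below background on both arrays, at 100.2 and 67.6 units, so it gave no ratio. With the log2 signals of both averaged, the log2 ratio was 0.32 relative to the median of all genes, under 2-fold.

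Dnmt1, the maintenance methyltransferase, was higher on its 2 brighter probe sets and lower on the dimmest. The brightest stood at 1700.2 units without and 2113 units with CSF1, 1.24-fold higher, with a log2 ratio of 0.31. The next stood at 886 and 1184 units, a log2 ratio of 0.42. The third stood at 346 and 225 units, a log2 ratio of -0.62. The mean over the 3 probe sets was therefore 0.04 ± 0.57 (SD between probe sets), and no direction held over all of them. All 3 names carry a mark (_a_at or _x_at) of probe sets that can match several transcripts.

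Hells, a SNF2-family remodelling enzyme that opens chromatin to DNA methylation in repeats, was 2.08-fold higher on its brightest probe set. That probe set stood at 248 units without and 515 units with CSF1, a log2 ratio of 1.05, which ranked 86 from the highest. A second probe set of similar control signal gave 243 and 261 units, a log2 ratio of 0.10. The probe sets thus disagreed in size by 0.95 on the log2 scale, with a mean of 0.58 ± 0.67 (SD between 2 probe sets). The third was below background on both arrays, at 44.9 and 8.34 units. Averaged over its 2 measured probe sets Hells was thus under 2-fold. With the log2 signals of all 3 averaged, its CSF1 level came to background, and its log2 ratio was -0.037 or lower relative to the median of all genes.

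**Figure D2:**
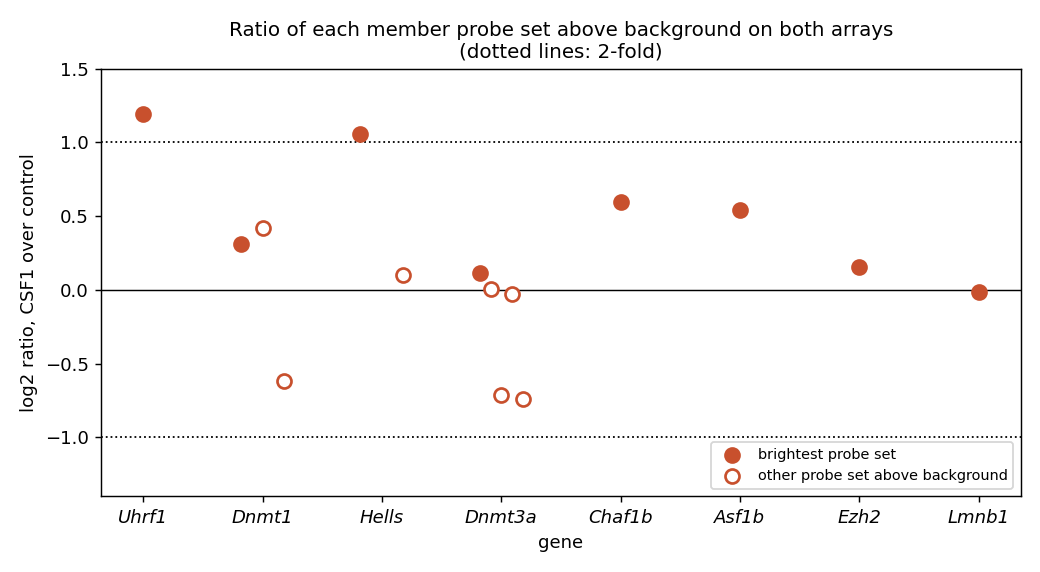
Log2 ratio of CSF1 over control for each of the 15 member probe sets above background on both arrays, by gene, with filled points for the brightest probe set of a gene, open points for the others and dotted lines at 2-fold. The probe sets of Dnmt1, Hells and Dnmt3a spread over 1.04, 0.95 and 0.85 on the log2 scale, while Uhrf1, Chaf1b, Asf1b, Ezh2 and Lmnb1 have 1 such probe set each.

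The de novo methyltransferases had no higher signal of that size. Dnmt3a, the enzyme that sets new methylation and whose loss is common in blood cell clones, was well above background on all 5 of its probe sets. Its brightest probe set stood at 5815 units without and 6281 units with CSF1, a log2 ratio of 0.11. Another 2 were as near to equal, with 2716 and 2726 units and with 533 and 523 units, log2 ratios of 0.01 and -0.03. The remaining 2 were lower on the CSF1 array. One stood at 1554 and 949 units, a log2 ratio of -0.71, and the other at 466 and 279 units, a log2 ratio of -0.74. The 5 probe sets therefore formed a set of 3 near 0 and a set of 2 that were about alike and lower, with a mean of -0.27 ± 0.42 (SD between 5 probe sets). Dnmt3b, the related enzyme most active in early embryos, was not above background. Its probe sets stood at 41.7 and 68.6 units and at 36.5 and 43.9 units on the control and CSF1 arrays, so no fold is given.

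The chaperones that deposit histones behind the fork were moderately higher, each on 1 measured probe set. Chaf1b, a subunit of chromatin assembly factor 1, stood at 345 units without and 521 units with CSF1, 1.51-fold higher, with a log2 ratio of 0.59. Its other probe set was below background on both arrays, at 126 and 122 units. Asf1b, the Asf1 form tied to proliferating cells, stood at 435 units and 634 units, 1.46-fold higher, with a log2 ratio of 0.54. These genes ranked 637 and 794 from the highest, so both lay just inside the 95th percentile of all measured genes.

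Ezh2, the catalytic subunit of Polycomb repressive complex 2 (PRC2), which methylates histone H3 at lysine K27, was nearly level. Its single probe set stood at 579.5 units without and 645 units with CSF1, 1.11-fold higher, with a log2 ratio of 0.15. Lmnb1, which encodes the B-type lamin of the nuclear envelope, stood at 324 units and 321 units, a log2 ratio of -0.01. Its second probe set was below background on both arrays, at 83.6 and 130.04 units. Both genes lie well within the pooled SD of 0.29 between probe sets.

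Several members have a close relative or a constant partner, and the values of these pairs were set side by side after the values were known. Uhrf2, the relative of Uhrf1, stood at 920 units without and 1156 units with CSF1, a log2 ratio of 0.33, which is 0.86 below that of Uhrf1. Asf1a, the other Asf1 gene, stood at 1284 and 1247 units, a log2 ratio of -0.04 against 0.54 for Asf1b. Ezh1, the Ezh2 relative of resting cells, was at 698 and 609 units, a log2 ratio of -0.20 against 0.15. In each of these pairs the member had the higher ratio, by 0.35 to 0.86 on the log2 scale, and these differences have no test.

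The shared histone-binding subunits did not follow Chaf1b. Rbbp4, which serves in chromatin assembly factor 1 and in PRC2, stood at 6175 units without and 6104 units with CSF1, a log2 ratio of -0.02, and its 3 measured probe sets had a mean of -0.23 ± 0.30 (SD between probe sets). Its relative Rbbp7 was at 0.00 on both of its probe sets. For the lamins the order was the reverse. Lmna, which encodes the A-type lamins, stood at 2211 and 3063 units, and averaged 0.44 ± 0.06 on the log2 scale (SD between 3 probe sets), while Lmnb1 was at -0.01 and Lmnb2 was below background on both arrays.

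Among readers, erasers and partners of DNA methylation, 16 of 21 listed genes were measured, with a median log2 ratio of 0.09, which turned to -0.058 with unmarked probe sets (names without _s_at, _x_at or _a_at) and was 0.19 with no background level. Of these, 9 were above 0 and 7 below, and 0 were past 2-fold in either direction on their brightest probe set. Tet2, which oxidises methylcytosine and so opposes the methyltransferases, was lower on both of its probe sets. The brighter stood at 482 units without and 287 units with CSF1, a log2 ratio of -0.75, and the other at 447 and 198 units, a log2 ratio of -1.17. Tet1 and Tet3, its relatives, were below background on both arrays. Zbtb24, a zinc-finger factor that acts with Hells and is mutated in the same immunodeficiency, was at 479 and 290.3 units, a log2 ratio of -0.72 on 1 measured probe set.

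Mbd3, a subunit of the NuRD repressor complex related to methyl-DNA binding proteins, was at 179.8 units without and 281 units with CSF1, a log2 ratio of 0.64. Cdca7, the Hells partner that directs it to chromatin, was at 17.4 units without and 158 units with CSF1. Since the control value is below background, Cdca7 was at least 1.17-fold higher. Pcna, the sliding clamp that tethers Dnmt1 to the fork, was at 20558 and 23368 units, a log2 ratio of 0.18.

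Of 29 other histone chaperone genes and partners, 25 were measured, with a median log2 ratio of 0.12, and 14 were above 0 and 11 below. The 1 gene past 2-fold was Hira, the chaperone for histone H3.3 outside replication. It stood at 104 units on the control array, below background, and 314 units on the CSF1 array, and was at least 2.33-fold higher on a probe set marked as possibly shared. Another Hira probe set, at 18.9 and 136 units, gave a bound of at least 1.01-fold. The subunits of the same complex did not move alike. Ubn1 was at 188 and 315 units, a log2 ratio of 0.75, and Cabin1 at 739 and 481 units, a log2 ratio of -0.62, each on 1 measured probe set.

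The other genes listed with PRC2 were mostly near or below 0. The 12 listed include Kdm6a and Kdm6b, which encode demethylases that remove the PRC2 mark. Of the 12, 10 were measured, and the median was -0.09. On brightest probe sets, the log2 ratio was below 0 for 9 of these, against 49.9% of all measured genes. Kdm6a was among them at -0.15, and its other measured probe set was at -0.71. Aebp2 was also among them at -0.06, but had a mean of 0.04 ± 0.10 (SD between 3 probe sets). Eed and Suz12, the core subunits beside Ezh2, had log2 ratios of -0.02 and -0.11, and Suz12 had a mean of -0.16 ± 0.06 (SD between 3 probe sets). The accessory subunit gene Jarid2 was at 796 units without and 549 units with CSF1, a log2 ratio of -0.54, though its other 2 probe sets gave -0.06 and -0.02. Lcor was at -0.40. Phf1, a Tudor-domain cofactor, was below background on the control array at 132 units and stood at 228 units on the CSF1 array, at least 1.69-fold higher.

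The heterochromatin list held genes that methylate or bind histone H3 at lysine K9 and H4 at lysine K20, with corepressors, deacetylases and remodelling enzymes. Its median was 0.08 over 19 measured of 22 listed, with 14 above 0, 5 below and 0 past 2-fold. Cbx5, encoding heterochromatin protein HP1 alpha, was at 480.03 units without and 679 units with CSF1, and averaged 0.55 ± 0.07 on the log2 scale (SD between 2 probe sets). Another Cbx5 probe set, below background without CSF1, gave a bound of at least 2.17-fold higher. The corepressor Trim28 had a mean of 0.43 ± 0.01 (SD between 2 probe sets). Kmt5c, a histone H4 methyltransferase, was at 233 units on the control array and below background on the CSF1 array, at least 1.72-fold lower.

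Genes of the nuclear lamina and inner nuclear membrane had a median of 0.07 over 18 measured of 20 listed, with 10 above 0, 8 below and 0 past 2-fold. This median turned to -0.075 with unmarked probe sets. Their most displaced genes were the nuclear pore gene Nup210 at -0.55, Cbx5, which this list shares with heterochromatin, and Banf1, a DNA-bridging protein, at 0.49 on its brightest probe set and 0.34 ± 0.14 over 3 (SD between probe sets).

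**Figure D3:**
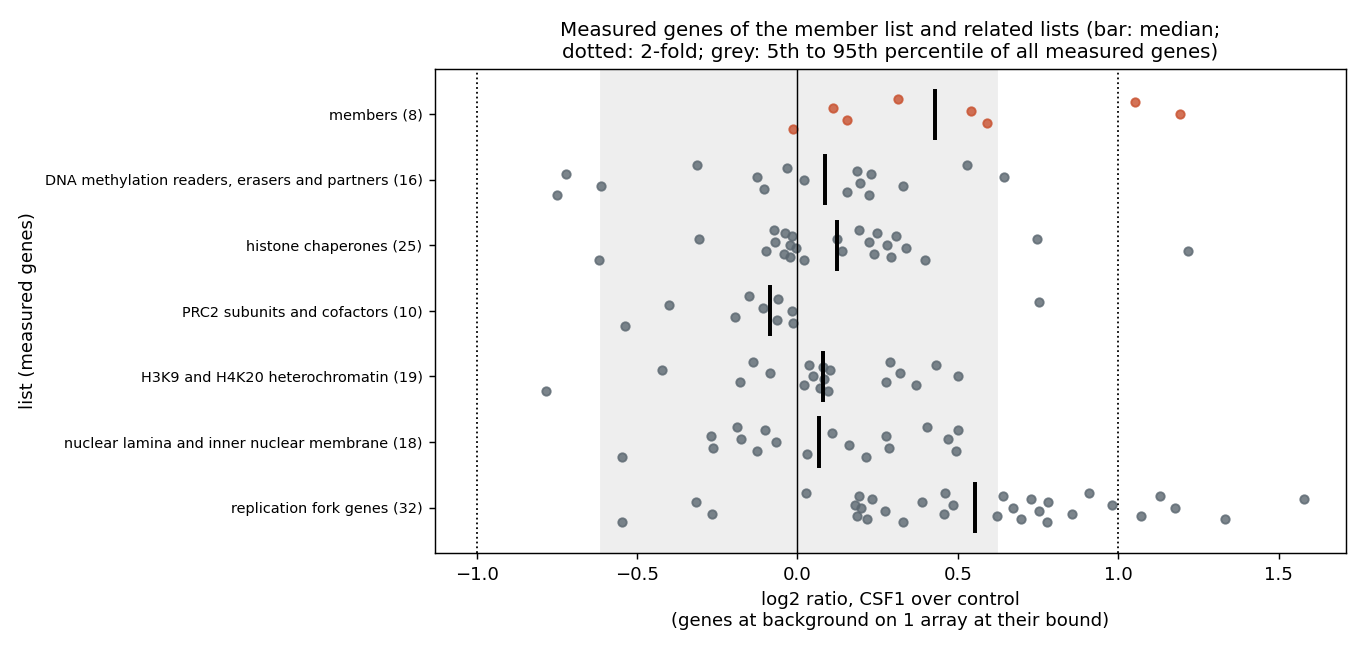
Log2 ratio of CSF1 over control for each measured gene of the member list and of 6 related lists, with genes at background on 1 array at their bound, black bars at the medians, dotted lines at 2-fold and grey from the 5th to the 95th percentile of all measured genes. The member median of 0.43 and that of replication fork genes, 0.55, lie to the right of the other medians, which run from -0.09 to 0.12.

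The replication fork genes, chosen as the nearest group for comparison, had a median of 0.55 over 32 measured, with 29 above 0. The 5 past 2-fold higher were Gins2 at 1.58, Mcm2 at 1.33, Gins1 at 1.18, Mcm7 at 1.13 and Lig1, the ligase that joins Okazaki fragments, at 1.07. On brightest probe sets, Uhrf1 at 1.19 lay within the range of these 5, and Hells at 1.05 lay just below the lowest of them. Chaf1b and Asf1b, at 0.59 and 0.54, lay beside the fork genes' median. Dnmt1, Ezh2, Dnmt3a and Lmnb1 lay below it. The difference between the lists has no test.

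Of the markers of the labelled cell type, 11 of 12 macrophage marker genes were above background on both arrays. The summed signal of this list was 203021 units without and 170646 units with CSF1, with a median log2 ratio of -0.21 over the measured genes. Csf1r, the CSF1 receptor, was at -0.34. The reference genes Actb and Gapdh, outside this list, were both at -0.30 on their brightest probe sets. Averaged over their probe sets they were at -0.30 and -0.54, so lower signal was not limited to macrophage markers. Fibroblast and mesothelial markers went the other way. Of 11, 9 were measured and all 9 were above 0 on their brightest probe set, with a median of 0.30. Their list had a summed signal of 51710 units without and 65520 units with CSF1, while Msln and Krt19 were below background on both. Upk3b was a bound, below background on the control array. Second probe sets of Pdgfra and Col1a1 were lower, at -0.58 and -0.25, and those of Col1a2 and Col3a1 were higher, at 0.18 and 0.78. Natural killer cell markers had a median of -0.73 over 4 measured of 6, with sums of 2544 and 1132 units, and Ncr1 was below background on both arrays.

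All sums of marker lists cover every listed gene with a probe set, with values below background included. T cell markers had 4 measured of 8, with sums of 1211 and 1248 units. B cell markers had 4 measured of 6, with sums of 705 and 464 units. Only 1 of these 4, Ms4a1, was above background on both arrays, at 151 and 153 units. Cd79a and Cd79b were below it with CSF1, at 50.3 and 70.3 units, and Pax5 was below it without CSF1. Neutrophil, eosinophil, dendritic and endothelial lists had 1 or 2 measured genes each, and mast cell markers 5 of 6, with sums of 2736 and 2380 units. In bulk RNA fewer cells of a type and less RNA per cell cannot be told apart, and the part of these cells in the members' ratios was not tested. The 18 hybridisation spikes averaged -0.29 ± 0.13 on the log2 scale (SD between spike probe sets). As signs of RNA quality, the 3' over 5' ratios were 1.35 and 1.38 for Actb without and with CSF1, and 1.03 and 1.40 for Gapdh. Whether this difference bears on the disagreement between member probe sets was not tested.

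**Figure D4:**
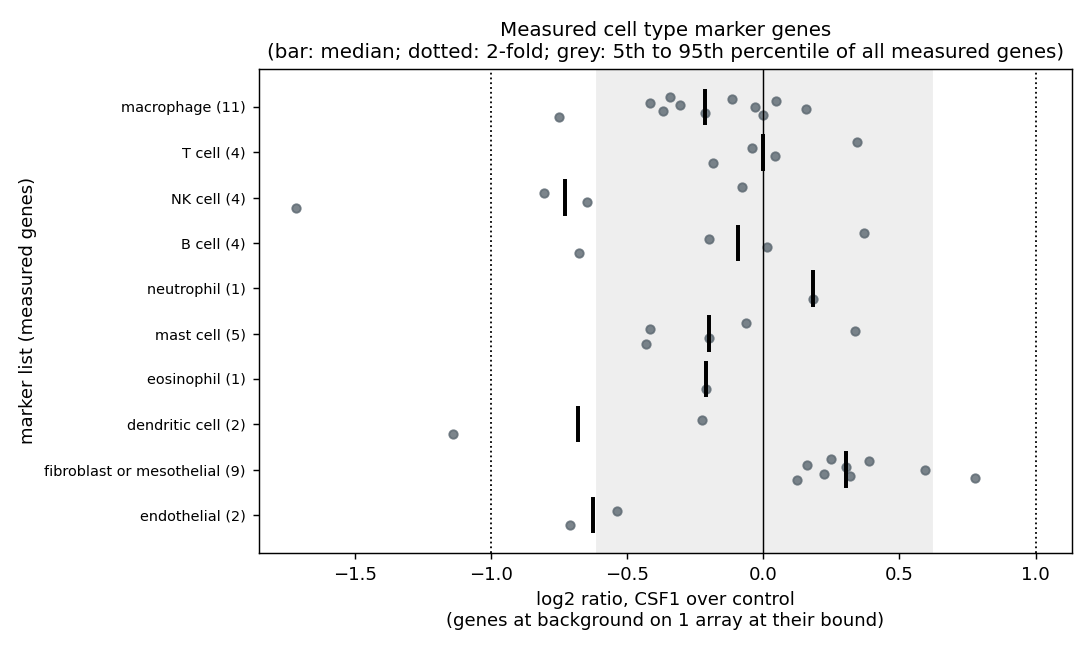
Log2 ratio of CSF1 over control for each measured marker gene of 10 cell type lists, with genes at background on 1 array at their bound, black bars at the medians, dotted lines at 2-fold and grey from the 5th to the 95th percentile of all measured genes. The fibroblast or mesothelial points all lie right of 0, with a median of 0.30, and the macrophage median lies at -0.21.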

How the data were processed

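The deposited table held intensity values on a linear scale that the authors made with GeneSpring 6.2, per the series' design text; the summarization step was not given in the sources used here. Both arrays had the same trimmed mean (2% per end), as tested on the file. Gene symbols came from GEO's platform annotation: 34958 probe sets had 1 symbol, and 0 differed from RefSeq's symbol for their Entrez ID, with 204 unmatched. Groups came from the labels. No further scaling was applied. Ratios are log2 of CSF1 over control, and fold bounds use the background level. Named genes were all members and, per related list, those past 2-fold or else the 3 most displaced; partners and relatives of members, and defining genes such as Pcna, were added after values were seen. Members and lists were chosen with earlier results of these data known. The procedure was tested on simulated data with changes larger than 2-fold, placed only in genes far above background. That test does not cover dimmer genes such as Uhrf1, Hells, Chaf1b and Asf1b. Alternatives were other scalings (quantile, loess with span 0.3, spikes, median), background levels (95th percentile or none), probe-set rules and a 1.5-fold threshold. Scripts ran on Python 3.11.15 with pandas 2.3.3, numpy 2.4.6, statsmodels 0.14.6, scipy 1.17.1 and matplotlib 3.10.9.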

Additional observations from a re-analysis of the deposited data

How the results depend on the processing

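Of the 8 measured members, 2 were at least 2-fold higher, and 0 were when all probe sets of a gene were averaged, those below background included; with the mean of probe sets above background on both arrays, added after seeing the data, 1 was. Under the average of all probe sets, log2 ratios relative to the median of all genes were -0.037 or lower for Hells, 0.32 for Uhrf1, 0.28 for Chaf1b, -0.27 for Dnmt3a and 0.32 for Lmnb1; of these, all but Dnmt3a have a probe set below background on both arrays. The count was 2 under all 4 scalings and under both other background levels, and with unmarked probe sets, which left 7 members without Dnmt1. The median of the members ran from 0.22 to 0.55 over 9 alternatives, and that of the fork genes from 0.47 to 0.67. The value of 0.55 came from settings that changed the set of members, to 9 with no background level and 7 with unmarked probe sets. With 8 members the highest median was 0.44. Relative to the median of all genes, the medians of 2 lists changed sign, that of methylation readers, erasers and partners (-0.058 to 0.19) and that of the lamina (-0.075 to 0.13), both below 0 with unmarked probe sets alone. The medians ran from -0.22 to -0.050 for the PRC2 list, from 0.024 to 0.14 for the chaperones and from 0.056 to 0.093 for heterochromatin. Centring on the spikes moved the median of all genes to 0.28, and values are given relative to it. No paired analysis was possible because each group has 1 array. Signal over background limits the members whose second probe set was dim, and 1 array per group limits all values.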
